A study of Mus musculus with 17 samples.

Results

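Perigonadal white adipose tissue (pWAT), a visceral fat pad that lies beside the gonads, was compared between male and female wild-type (WT) mice across the autosomes. The comparison took the 3 WT male and 5 WT female libraries, 8 of the 17 libraries in a study of the lncRNA *U90926*. Of 50957 autosomal genes in the files, the 16900 with a mean normalized count of at least 10 over these 8 libraries were tested, and 34057 fell under that filter. All mice were C57BL/6J, were fed standard chow with no treatment, and were killed at 16 weeks of age, and WT mice were littermates of homozygous *U90926* knockout (U9-KO) mice that lack every exon of that gene. The 5 U9-KO female and 4 U9-KO male libraries served only as a check in other mice. Each library came from 1 mouse, and the whole pad was sequenced without sorting of cells.

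White fat stores triglyceride in adipocytes, which take up fatty acids, assemble and break down triglyceride, and secrete hormones such as leptin. Macrophages, endothelium, fibroblast-like progenitors and a covering mesothelium share the pad with them. In females this pad adjoins the ovary, oviduct and uterine horn, and in males it adjoins the epididymis. Sex hormones act through nuclear receptors such as the estrogen receptor *Esr1* and are inactivated by enzymes that include the estrogen sulfotransferase *Sult1e1*.

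Values below are the deposited normalized counts after a common rescaling of the 8 libraries, since the authors' size factors appear to have been set within each sex. Normalized counts are not corrected for gene length, so levels are compared between libraries and never between genes. A gene is called when its limma Benjamini-Hochberg adjusted p is under 0.05, and log2 fold changes are male over female on the log2(value + 1) scale with their standard error (SE). Summed values were 20243688 to 24033629 per WT library, and genes of low value allowed an estimate of the reads counted, 20417784 to 27501809 per library. *Xist* stood at 17682 to 23143 in the females and at 4.2 to 21.1 in the males, and *Ddx3y* at 0 to 2.9 and 3162 to 3224, so each library matched its labelled sex. *U90926* itself had a deposited count of 0 or 1 in every WT library, so its level in fat is no check of genotype.

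Sex separated 4559 of the 16900 autosomal genes, 27.0% of those tested. Of these, 2073 genes (12.3% of all tested) were higher in WT males and 2486 genes (14.7%) were higher in WT females. The male-higher differences were mostly small, with a median log2 fold change of 0.70 and 131 genes beyond 2, and the female-higher ones were larger, with a median of -1.38 and 846 genes beyond 2. The values of males and females did not overlap for 1959 of the male-higher and 2325 of the female-higher genes, against 16.4% and 17.2% of all genes tested whose groups did not overlap in those directions. The share of called genes per autosome ran from 23.4% to 30.8%. Without the common rescaling the split moved from 45.5% to 27.1% of calls higher in males, with 1260 male-higher and 3395 female-higher genes, as the median log2 fold change of all genes shifted from 0.003 to -0.122.

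Adipocyte markers were abundant in every library. *Adipoq*, which encodes adiponectin, read 69950, 56362, 52148, 29451 and 58743 in the WT females and 67967, 46169 and 68149 in the WT males. The sexes overlapped, and the log2 fold change was 0.22 (SE 0.30, limma adjusted p = 0.605), with a negative sign under quantile normalization and with ovary content as a covariate. The summed level of 20 adipocyte identity genes was 454798 to 875296 in the females and 1123258 to 1547074 in the males.

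Transcripts of neighbouring organs were present in every female library. The summed ovary markers, 15 genes of steroidogenic and granulosa cells, reached 5472, 29474, 13505, 128253 and 38596 in WT females 1 to 5 and 308, 412 and 347 in the males. WT female 4 carried the most and WT female 1 the least. The luteal and thecal enzyme *Cyp11a1*, which begins steroid synthesis, read 577, 12486, 4201, 52502 and 13953 in the females against 27.4, 55.2 and 44.2 in the males. The steroid dehydrogenase *Hsd3b1* read 1182, 9390, 5112, 48487 and 17414 in the females, with a single male library above 0 at 2.1. *Inha*, the inhibin alpha subunit of granulosa cells, read 220 to 6957 in the females and 36.1 to 39.0 in the males. *Star*, which carries cholesterol into the mitochondrion, read 1424 to 5396 in the females and 116 to 168 in the males. Of 28 ovary genes tested, 18 were higher in females and 0 in males, with a median log2 fold change of -3.82, or -3.63 with the 7 genes at 0 in every male library set at their lower bound (a floor of 3 counts per library). The median over all autosomal genes tested was 0.003. Ovary genes called numbered 11 without WT female 2, 10 without WT male 1 and 9 without WT female 5, WT male 2 or WT male 3.

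Smooth muscle genes, which encode the contractile apparatus of vessels, oviduct and uterus, were also higher in females. The summed level of 12 smooth muscle genes was 174765, 61535, 250167, 143334 and 168178 in the females and 14382, 17421 and 18648 in the males. Called higher in females were 11 of the 12, with a median log2 fold change of -3.05. *Actg2*, the actin of visceral smooth muscle, read 9514, 2853, 18039, 9706 and 8803 in the females and 44.3, 11.7 and 46.3 in the males. *Cnn1*, the calponin of contractile smooth muscle, read 10587, 2786, 13642, 8252 and 8387 in the females and 61.1, 38.2 and 104 in the males. Both groups of values were far apart, and WT female 2 was the lowest female for each. The log2 fold changes were -8.13 (SE 0.60, limma adjusted p = 8.07e-05) for *Actg2* and -6.93 (SE 0.49, limma adjusted p = 7.50e-05) for *Cnn1*.

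Epithelial genes of the oviduct and uterus followed, with summed levels over the whole list of 30 genes of 4001 to 15368 in the females and 1412 to 2205 in the males. Of 24 tested, 16 were higher in females, among them the tight-junction gene *Cldn4* and the ciliary dynein *Dnah5*. *Cldn4* read 22.2, 26.0, 32.2, 24.0 and 70.3 in the females and 0 in every male, at least 11.6-fold higher against a floor of 3 counts per library. For the epididymis, which adjoins the male pad, of 33 epididymis and testis genes, 5 passed the filter, none was called higher in males, and 3 were called higher in females, namely *Crisp1*, *Cst8* and *Ddx4*, with 1 called when any of the 3 males was left out. *Cst8*, a cystatin protease inhibitor, stood at 5.8 to 211 in the females and at 0 to 1.1 in the males. Over the 10 female libraries of both genotypes, centred within genotype, *Cst8* and *Ddx4* rose with the summed ovary markers. Their Pearson r was 0.89 and 0.90.

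**Figure D1:**
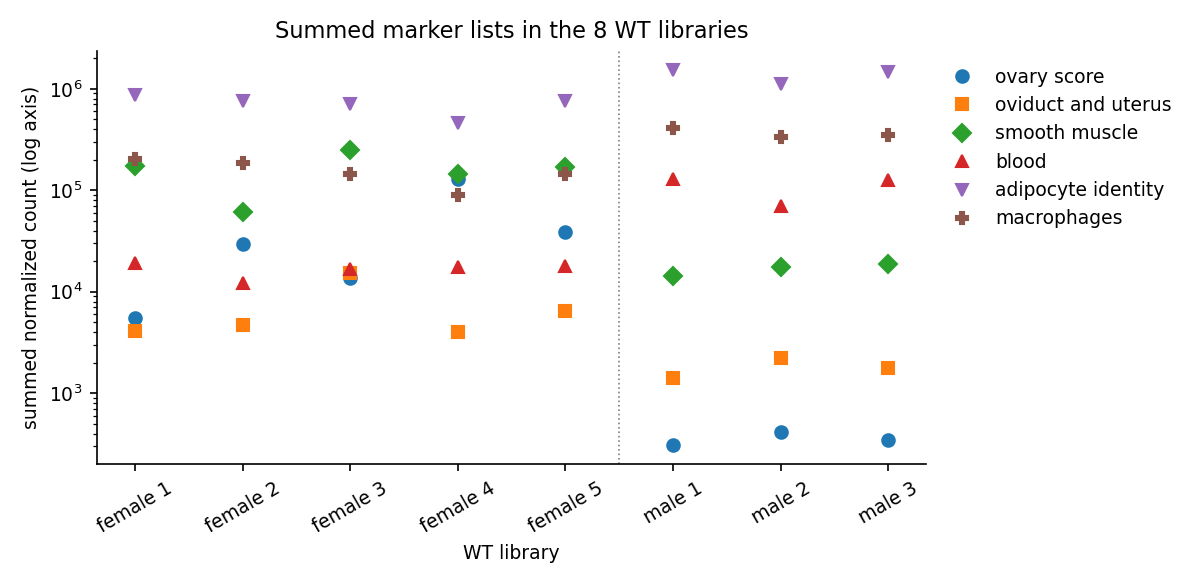
Summed normalized count (log axis) of 6 marker lists in each of the 8 WT libraries, females left of the dotted line and males right of it, 1 point per list and library. Ovary, oviduct and smooth muscle sums lie above the male range in every female, and blood sums lie above the female range in every male. Adipocyte and macrophage sums are higher in all 3 males. Most of each macrophage sum is *Lpl*, which is also on the adipocyte list, at 54784 of 88845 in WT female 4 and 341458 of 410470 in WT male 1. The macrophage points are therefore no separate measure of macrophage content.

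How far each gene moved with those tissues was described over the 10 female libraries of both genotypes, centred within genotype. An ovary mark was given to members of the ovary and oviduct lists and to genes whose Pearson r with the summed ovary markers was 0.7 or more. This marked 475 of the 2486 female-higher genes (19.1%), 29 of the 2073 male-higher genes (1.4%) and 10.6% of all genes tested. Tracking of the mean smooth muscle level at the same r was found for 741 female-higher genes (29.8%), for 78 male-higher genes (3.76%) and for 9.91% of all tested. Tracking of the oviduct genes was found for 503 female-higher and 41 male-higher genes. Any of these marks applied to 1473 female-higher genes (59.3%), to 131 male-higher genes (6.32%) and to 24.8% of all tested, and 1013 female-higher genes carried none. The marks are correlations over few libraries and say nothing of the cell that made a transcript. Of the male-higher genes, 341 (16.4%) had an r of -0.7 or less with the ovary markers, against 6.56% of all tested, and the part of ovary content in the differences was not tested beyond these values.

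**Figure D2:**
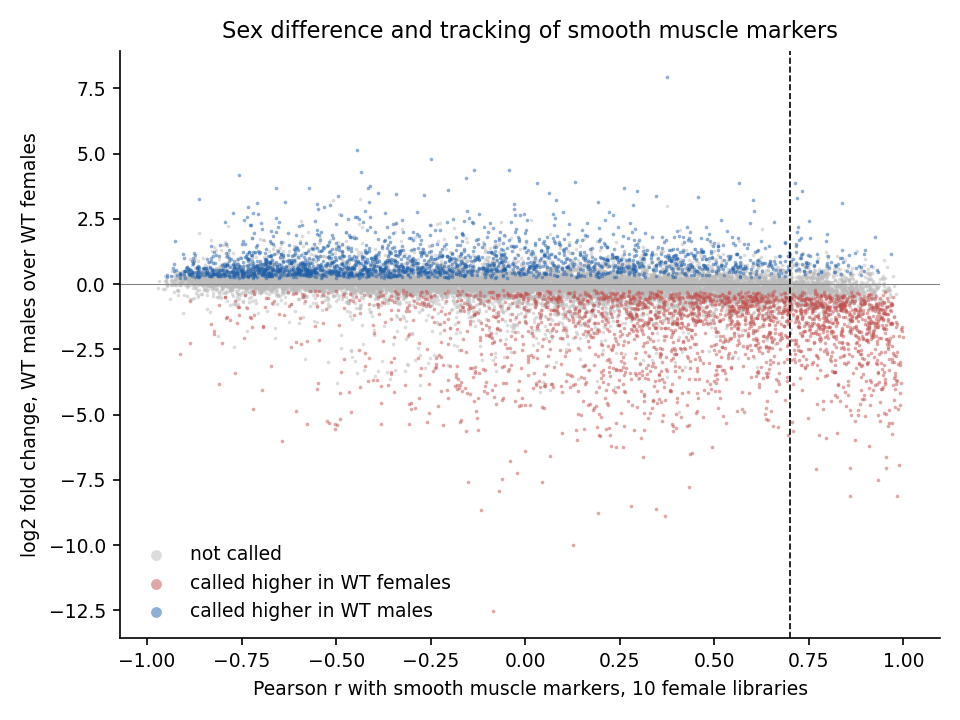
Log2 fold change of WT males over WT females (vertical) against Pearson r with the mean smooth muscle level over 10 female libraries (horizontal), 1 point per autosomal gene tested, blue for male-higher, red for female-higher and grey for not called. Right of the dashed line at 0.7 lie 741 of the 2486 red points and 78 of the 2073 blue points.

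With the ovary sum of each female library as a covariate, 1118 genes were higher in males (6.62% of those tested) and 1762 in females (10.4%), and every gene called without it kept its sign. Of the genes called without it, 1022 male-higher and 1656 female-higher genes were called again. The covariate held the same value in every male, and among the ovary genes themselves 12 of 28 were still called under it. The log2 fold change of *Hsd3b1* with the covariate was -11.05. The covariate therefore did not remove ovary transcripts from the comparison, and a repeated call does not set a gene apart from ovary content. With WT females 4 and 5 left out, the libraries richest in ovary transcripts, 1097 genes were higher in males and 1534 in females. Of these, 1054 and 1485 were also called with all 8 libraries. This exclusion was chosen after the values were seen.

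*Sult1e1* showed the widest male excess among the named genes. It encodes the sulfotransferase that inactivates estrogens and lies on chromosome 5 at 87575969 to 87591594 (GRCm38, minus strand). Its normalized counts were 3.9, 6.7, 18.5, 5.8 and 16.6 in the WT females and 1597, 3275 and 2506 in the WT males. Every male was far above every female, and the log2 fold change was 7.92 (SE 0.48, limma adjusted p = 4.51e-05), a 242-fold difference on the fitted scale. *Hsd11b1*, which regenerates active glucocorticoid inside fat cells, read 556, 490, 359, 254 and 411 in the females and 3217, 3447 and 3955 in the males. No female came near the males, and its log2 fold change was 3.14 (SE 0.23, limma adjusted p = 7.60e-05).

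Promoters are printed for the steroid, complement and hormone genes that stood out in males and for *Cish*, which stood out in females. Each is the RefSeq sequence on GRCm38.p6 from 250 bases before to 50 bases after the transcription start, 5′ to 3′ on the gene's strand. Capitals mark matches, on either strand, to the estrogen-receptor hexamer AGGTCA, the androgen- and glucocorticoid-receptor hexamer AGAACA, the STAT motif TTCNNNGAA, the C/EBP motif TTGCNNAA and the TATA motif TATAAA. In the promoter of *Sult1e1* capitals mark the hexamer AGGTCA on the opposite strand, 113 bases before the start.
Sult1e1, chr5:87591562-87591861, minus strand: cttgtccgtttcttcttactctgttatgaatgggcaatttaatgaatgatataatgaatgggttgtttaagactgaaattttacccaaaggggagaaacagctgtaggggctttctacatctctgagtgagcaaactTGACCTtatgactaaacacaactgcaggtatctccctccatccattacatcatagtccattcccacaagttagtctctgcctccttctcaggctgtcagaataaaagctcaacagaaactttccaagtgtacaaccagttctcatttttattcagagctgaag

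Other members of the steroid list split by sex in both directions, with 6 higher in males and 8 higher in females of 27 tested. *Esr1*, the main estrogen receptor of fat, read 3515, 1718, 3738, 2673 and 3689 in the females and 1445, 796 and 999 in the males, with a log2 fold change of -1.49 (SE 0.28, limma adjusted p = 0.0057). Its r with the smooth muscle genes was 0.81. *Pgr*, the progesterone receptor and a classical estrogen target, read 876, 283, 265, 160 and 157 in the females and 1.1, 0 and 0 in the males. *Pgr* carried none of the tissue marks, with r of -0.33 for ovary and 0.43 for smooth muscle. *Akr1c14*, a hydroxysteroid dehydrogenase, read 1471, 1045, 936, 2037 and 510 in the females and 84.3, 90.2 and 99.9 in the males, and it belongs to a gene family with near-identical copies that counting can mix. *Cyp7b1*, a hydroxylase of oxysterols and steroids, was 6.94-fold higher in females (log2 fold change -2.80, SE 0.21, limma adjusted p = 9.37e-05), with an r of 0.92 with smooth muscle.

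The terminal complement genes *C6* and *C7* were higher in males. They encode parts of the pore-forming membrane attack complex and lie beside each other on chromosome 15, *C6* at 4727175 to 4814967 and *C7* at 4988762 to 5063740 (GRCm38). *C7* read 223, 404, 683, 328 and 519 in the females and 6452, 10846 and 8655 in the males, with a log2 fold change of 4.39 (SE 0.33, limma adjusted p = 9.11e-05). *C6* read 891, 582, 844, 430 and 648 in the females and 3314, 3064 and 3794 in the males, with a log2 fold change of 2.36 (SE 0.22, limma adjusted p = 2.23e-04). Both genes separated the sexes without overlap, which for *C7* was a condition of its choice among the widest differences. The r of *C7* with the oviduct genes was 0.77 and that of *C6* with the ovary markers was -0.96. Of 22 complement genes tested, 11 were higher in males and 1 in females, against 11 and 5 in U9-KO mice. The list median was 0.67, and members called numbered 5 with the ovary covariate, 6 without WT male 2 and 5 without WT male 3. The promoter of *C7* held the STAT motif, the hexamer AGGTCA 72 bases before the start and the TATA motif.
C7, chr15:5063724-5064023, minus strand: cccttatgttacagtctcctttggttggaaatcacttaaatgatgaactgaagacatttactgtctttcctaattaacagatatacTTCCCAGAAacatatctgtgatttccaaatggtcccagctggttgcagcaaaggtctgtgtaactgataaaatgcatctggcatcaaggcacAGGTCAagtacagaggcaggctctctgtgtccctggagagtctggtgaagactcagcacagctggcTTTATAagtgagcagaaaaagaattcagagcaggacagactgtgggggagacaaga

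Acute-phase and matrix genes were also among the widest male excesses. *Hp*, which encodes the hemoglobin-binding protein haptoglobin, read 11307, 10162, 11961, 7317 and 9088 in the females and 67193, 131445 and 115901 in the males, a log2 fold change of 3.36 (SE 0.25, limma adjusted p = 8.15e-05). *Lrg1*, a secreted leucine-rich glycoprotein, read 1222, 1128, 1096, 685 and 1572 in the females and 7770, 11170 and 12372 in the males, a log2 fold change of 3.21. *Timp4*, an inhibitor of matrix metalloproteinases, read 1412, 1968, 571, 657 and 928 in the females and 8297, 8975 and 8864 in the males, a log2 fold change of 3.13. For these 3 genes every male stood well above the highest female, and the r of *Hp* with the ovary markers was -0.85. No overlap was a condition for the 12 widest differences, to which these genes belong. *Col6a5*, a collagen VI chain, read 286 to 989 in the females and 5656, 9765 and 8413 in the males, with an r of 0.81 with the oviduct genes. The sibling chain *Col6a6* was 3.0-fold higher in males, whereas *Col6a3* was 2.54-fold and *Col12a1* 15.3-fold higher in females. The r of *Col6a3* and *Col12a1* with smooth muscle was 0.93 and 0.95. Of 49 collagen and matrix genes, 10 were higher in males (20.4%) and 8 in females (16.3%), with a median of -0.11. The shares over all genes tested were 12.3% and 14.7%.

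**Figure D3:**
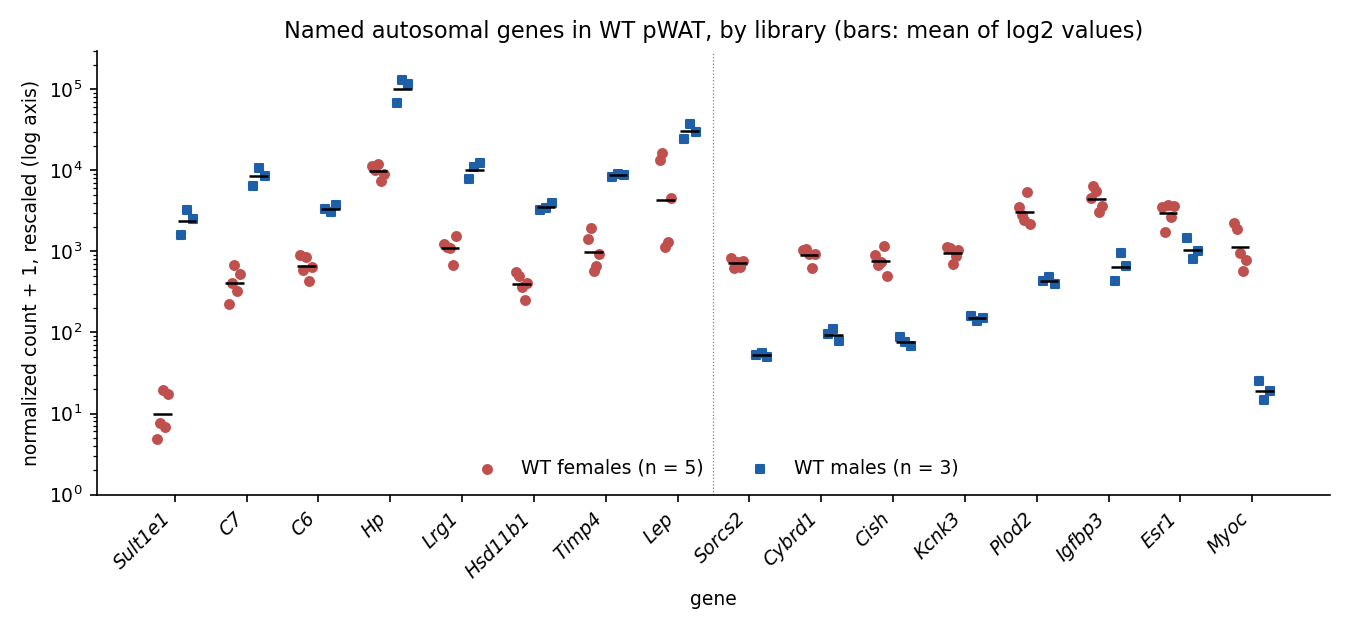
Normalized count + 1 (log axis) of 16 named autosomal genes in each WT library, red circles for the 5 females and blue squares for the 3 males, with black bars at the mean of the log2 values. The 8 genes left of the dotted line are higher in males and the 8 right of it are higher in females. The sexes do not overlap for any of them, which was a condition of choice for most.

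The remaining genes of the 12 with the widest male excess were *Serpina3k*, *Rarres1*, *Prkag3*, *Syt12* and *Trim67*, with log2 fold changes of 3.91, 3.45, 3.08, 3.07 and 3.04. *Serpina3k*, a serine protease inhibitor, varied most, at 713, 78.5 and 617 in the males and 6.7 to 47.8 in the females, and it has close paralogs whose reads counting can mix. *Prkag3*, a regulatory subunit of the energy sensor AMP kinase, read 97.0, 470 and 389 in the males and 15.6 to 74.0 in the females.

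*Lep*, which encodes the satiety hormone leptin, was higher in males but spread widely among females. It read 13577, 16551, 1131, 1298 and 4530 in the females and 24516, 37926 and 29880 in the males. WT females 1 and 2 stood about an order of magnitude above WT females 3 and 4, and every male stood above every female. The log2 fold change was 2.81 (SE 0.89, limma adjusted p = 0.0435), and with ovary content as a covariate the adjusted p was 0.173. Its promoter held the C/EBP motif 55 bases before the start.
Lep, chr6:29059971-29060270, plus strand: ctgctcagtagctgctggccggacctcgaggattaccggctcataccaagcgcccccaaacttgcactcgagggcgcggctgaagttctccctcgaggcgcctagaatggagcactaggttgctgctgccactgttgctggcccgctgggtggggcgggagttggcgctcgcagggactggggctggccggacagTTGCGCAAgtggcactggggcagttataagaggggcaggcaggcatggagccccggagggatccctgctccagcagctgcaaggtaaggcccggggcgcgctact

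Adipocyte identity genes were shifted to males as a group. Of 20 tested, 11 were higher in males and 0 in females, with a median log2 fold change of 0.90. *Pparg*, the master regulator of adipogenesis, read 3975, 4398, 2477, 1456 and 1912 in the females and 6550, 5932 and 6570 in the males (2.43-fold, limma adjusted p = 0.0217). *Cebpa*, its partner transcription factor, read 18682, 15893, 10201, 7406 and 14665 in the females and 30892, 21084 and 26992 in the males (log2 fold change 1.03, SE 0.29, limma adjusted p = 0.0296). *Fabp4*, the fatty acid binding protein of fat cells, read 116151, 87897, 113474, 81102 and 111157 in the females and 229415, 198101 and 198735 in the males (log2 fold change 1.05, SE 0.26, limma adjusted p = 0.0171). For all 3 genes the lowest male exceeded the highest female. *Plin1* and the lipase *Pnpla2* had log2 fold changes of 0.86 and 0.40 with limma adjusted p = 0.0734 and 0.234. In the female libraries 11 of the 20 genes had an r of -0.7 or less with the ovary markers. The number of members called was 3 with the ovary covariate and 4 without WT females 4 and 5. Leaving out single libraries gave 7 without WT female 3, 5 without WT female 5, 2 without WT male 1, 6 without WT male 2 and 1 without WT male 3. In bulk tissue, fewer cells of a type and less RNA per cell cannot be told apart.

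Genes that bring fatty acids into fat and esterify them showed a similar direction. Of 32 tested, 12 were higher in males and 1 in females, with a median of 0.41. Among the 12, *Lpl*, *Cd36*, *Fabp4* and *Fabp5* are also on the adipocyte list, so the lists are not separate measures. *Gpat4*, an acyltransferase at the start of triglyceride assembly, read 2592, 2461, 2384, 2116 and 2558 in the females and 5795, 4471 and 4705 in the males (log2 fold change 1.04, SE 0.11, limma adjusted p = 4.05e-04). *Mogat1*, a monoacylglycerol acyltransferase, read 427, 377, 229, 184 and 273 in the females and 1462, 886 and 1060 in the males (log2 fold change 1.97, SE 0.28, limma adjusted p = 0.00164). Neither gene overlapped between the sexes. *Lpl*, the lipase that releases fatty acids from circulating lipoproteins, was 2.79-fold higher in males (limma adjusted p = 0.0205). *Pdk4*, which diverts pyruvate from oxidation, was the member higher in females, at 2.16-fold. Members called in both directions numbered 8 with the ovary covariate and 7 without WT male 3.

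Of 29 lipolysis and lipid droplet genes, 10 were higher in males and 3 in females, with a median of 0.67. Among the 10, *Lipe*, *Plin4* and *Cidec* are also on the adipocyte list and *Aqp7* on the uptake list. *Prkar2b*, a regulatory subunit of the kinase that drives lipolysis, read 7388, 6181, 7804, 8082 and 7713 in the females and 12685, 14401 and 15285 in the males (log2 fold change 0.93, SE 0.12, limma adjusted p = 0.00102). *Pde3b*, the phosphodiesterase through which insulin restrains lipolysis, was 1.77-fold higher in males, and *Lipe*, hormone-sensitive lipase, was 1.94-fold higher. The female-higher members were the receptors *Hcar1*, *Hcar2* and *Npr1*. *Npr1*, a natriuretic peptide receptor, was 1.33-fold higher in females (limma adjusted p = 0.0121). *Hcar1*, the lactate receptor, had a log2 fold change of -0.89 in WT mice and 0.03 in U9-KO mice. Called members numbered 5 without WT male 3.

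Few genes of de novo lipogenesis were called, with 1 higher in males and 3 in females of 26 tested. *Fasn*, fatty acid synthase, read 409547, 383457, 17572, 37080 and 109889 in the females and 325267, 50885 and 108280 in the males, and its log2 fold change was 0.25 (SE 1.09, limma adjusted p = 0.886), with a negative sign in 7 of the alternatives run. *Scd1*, which desaturates the products of *Fasn*, read 82933 to 533916 in the females and 565295 to 937617 in the males (limma adjusted p = 0.0809). The 4 genes called were the elongase *Elovl1*, higher in males, and *Elovl5*, *Elovl7* and the desaturase *Fads2*, higher in females. The number called was 8 without WT female 1, 2 without WT female 5 or WT male 2, and 1 without WT male 3. *Fads2* read 1231 to 1607 in the females and 764, 663 and 502 in the males (log2 fold change -1.19, SE 0.15). No member of 22 cholesterol synthesis genes was called by limma, and 1 had an unadjusted p under 0.05. Without WT female 1, 2 or 3 or WT male 1 the number called was 1. Of 70 oxidative phosphorylation genes, 63 had a positive log2 fold change, with a median of 0.20 against 0.003 over all genes tested. Called were 3 higher in males (4.29%) and 1 in females (1.43%), under the 12.3% and 14.7% of all genes tested. These 4 calls numbered 1 with the ovary covariate, 1 without WT female 3, WT female 5 or WT male 3, and 2 without WT female 4 or WT male 1.

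The thermogenic list had 2 members higher in males (11.1%) and 4 in females (22.2%) of 18 tested, against 12.3% and 14.7% of all genes tested. *Ucp1*, the uncoupling protein of brown and beige fat, fell under the filter, at deposited counts of 0 to 2 in every WT library. *Ebf2*, a regulator of beige precursors, was 3.14-fold higher in males (limma adjusted p = 0.00158). *Kcnk3*, a potassium leak channel enriched in brown fat, read 1147, 1102, 706, 888 and 1032 in the females and 159, 139 and 152 in the males. The log2 fold change of *Kcnk3* was -2.67 (SE 0.16, limma adjusted p = 4.42e-05), the sexes did not overlap, and its r with smooth muscle was -0.91. The related channels *Kcnk2* and *Kcnk5* were 4.68-fold and 5.43-fold higher in females.

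Macrophage genes had the highest share of male-higher calls among lists with at least 10 members tested. Of 38 tested, 27 were higher in males and 1, *Cd9*, in females, with a median of 0.91. *Lpl*, also on the adipocyte list, was among the 27. *Mertk*, a receptor for the clearance of dead cells, read 697, 800, 894, 841 and 804 in the females and 1409, 1649 and 1597 in the males (log2 fold change 0.94, SE 0.10, limma adjusted p = 4.08e-04). *Lilrb4a*, an inhibitory receptor, read 209, 237, 252, 173 and 217 in the females and 456, 813 and 520 in the males (log2 fold change 1.42, SE 0.20, limma adjusted p = 0.0015). *Csf1r*, the growth factor receptor of the lineage, read 2856, 2743, 2605, 1149 and 2673 in the females and 4229, 6646 and 4627 in the males. These 3 genes did not overlap between the sexes. *Adgre1*, a surface receptor widely used as a macrophage marker, had a log2 fold change of 0.39 (SE 0.23, limma adjusted p = 0.222), and its values overlapped. Called members of the list numbered 16 with the ovary covariate, 21 without WT females 4 and 5, 12 without WT male 2 and 15 without WT male 3.

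Of 24 inflammatory genes, 9 were higher in males and 1 in females, with a median of 0.61, and 6 in all were called without WT male 1. In U9-KO mice 6 were higher in males and 5 in females. *Ccl2*, the chemokine that recruits monocytes, read 89.0, 89.4, 44.8, 52.9 and 47.8 in the females and 305, 228 and 147 in the males (log2 fold change 1.80, SE 0.32, limma adjusted p = 0.00449). *Cxcl14*, an epithelial and stromal chemokine, was the female-higher member, at 802, 506, 322, 648 and 583 in the females and 95.9, 70.0 and 64.2 in the males (log2 fold change -2.84, SE 0.27, limma adjusted p = 2.41e-04). Blood transcripts stood beside these differences, since the 4 hemoglobin genes tested summed to 12056 to 19028 in the females and to 128390, 69896 and 126186 in the males. Hemoglobin genes are near-identical copies, so the sum is the safer value, and the part of blood in the leukocyte lists was not tested.

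Endothelial genes were higher in males for 11 of 24 and in females for 1, with a median of 0.46. In U9-KO mice 5 were higher in males and 3 in females, with a median of 0.21, and 5 of the 11 were called again. Members called in WT mice numbered 9 with the ovary covariate. They numbered 8 without WT females 4 and 5, without WT male 2 or without WT male 3. *Cldn5*, a tight-junction gene of endothelium, read 2064, 1752, 1518, 1581 and 1998 in the females and 3500, 3700 and 3833 in the males (log2 fold change 1.05, SE 0.12, limma adjusted p = 4.97e-04). *Prox1*, the regulator of lymphatic identity, was the female-higher member, 3.35-fold (limma adjusted p = 0.0088). Mesothelial genes ran the other way, with 8 of 21 higher in females, 0 in males and a median of -0.63, and 5 were called without WT male 3. Their summed level was 35605 to 48434 in the females and 22994, 42260 and 22439 in the males, so WT male 2 lay within the female range. *Krt18*, a keratin of simple epithelia, read 291, 385, 578, 427 and 670 in the females and 113 or less in the males, 5.50-fold higher in females, and its r with the oviduct genes was 0.89.

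Of 31 T cell and innate lymphoid genes, 5 were higher in males (16.1%) and 3 in females (9.68%), near the 12.3% and 14.7% of all genes tested. These 8 calls numbered 3 with the ovary covariate, 3 without WT female 5 or WT male 3 and 4 without WT male 1. *Cd247*, a signalling chain of T and natural killer cells, was 3.44-fold higher in males (limma adjusted p = 0.00165), and *Trac*, the T cell receptor alpha constant gene, was 4.73-fold higher in females (limma adjusted p = 0.0196). Of 28 B and plasma cell genes, 4 were higher in males (14.3%, near the 12.3% of all genes tested) and 0 in females (14.7% of all tested). *Ebf1*, also on the progenitor list, was 1 of the 4. The number called was 2 without WT male 1 and 0 without WT male 2. *Ighm*, the heavy chain of IgM, read 5621, 9955, 1837, 1055 and 2495 in the females and 23560, 18332 and 11165 in the males. In U9-KO mice 10 members of this list were higher in females and 1 in males, and its median was -1.31 against -0.07 in WT mice. The antigen presentation list had 4 members higher in males and 1 in females of 21 in WT mice, with a median of 0.45, against 0 and 4 in U9-KO mice, with a median of -0.15. Its 5 calls in WT mice numbered 8 without WT female 1, 2 without WT male 1, 1 without WT female 3 or WT female 5, and 0 without WT male 3. The interferon list had 1 higher in males and 3 in females of 30 tested.

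Genes that pattern the body axis and mesoderm were higher in females for 21 of 51 tested and in males for 6, with a median of -0.46. *Hoxc10* read 5.8, 16.3, 104, 29.8 and 37.1 in the females and 0 in every male, at least 12.9-fold higher against a floor of 3 counts per library. *Hoxd9* read 174, 218, 642, 610 and 408 in the females and 141, 121 and 97.8 in the males (log2 fold change -1.59, SE 0.43, limma adjusted p = 0.0247). *Hoxc8*, from the same cluster as *Hoxc10*, went the other way, at 2168, 1805, 1994, 1229 and 2148 in the females and 4508, 2250 and 3761 in the males (limma adjusted p = 0.0299). The transcription factors *Meox2* and *Osr1* were 2.98-fold and 2.92-fold higher in males, whereas *Osr2* was 24.9-fold higher in females, with an ovary r of 0.80. *Tcf21*, a regulator of visceral mesenchyme, read 436, 493, 668, 645 and 512 in the females and 144, 225 and 168 in the males (log2 fold change -1.62, SE 0.19, limma adjusted p = 5.99e-04).

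Imprinted genes, which are expressed from a single parental copy, were higher in females for 10 of 33 and in males for 1. *H19* read 55.1, 80.7, 135, 112 and 160 in the females and 0, 2.1 and 3.2 in the males. *Meg3* read 2978, 3245, 4464, 4490 and 4254 in the females and 1212, 1523 and 1205 in the males (log2 fold change -1.55, SE 0.16, limma adjusted p = 3.85e-04). *Dlk1*, which restrains adipocyte differentiation and neighbours *Meg3*, read 102 to 226 in the females and 17.9 to 57.3 in the males (log2 fold change -2.48, SE 0.40, limma adjusted p = 0.00271). *H19* and *Meg3* had r of 0.78 and 0.80 with the oviduct genes, and *Dlk1* of -0.29. Called members numbered 7 without WT male 3, and those of the patterning list 15.

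**Figure D4:**
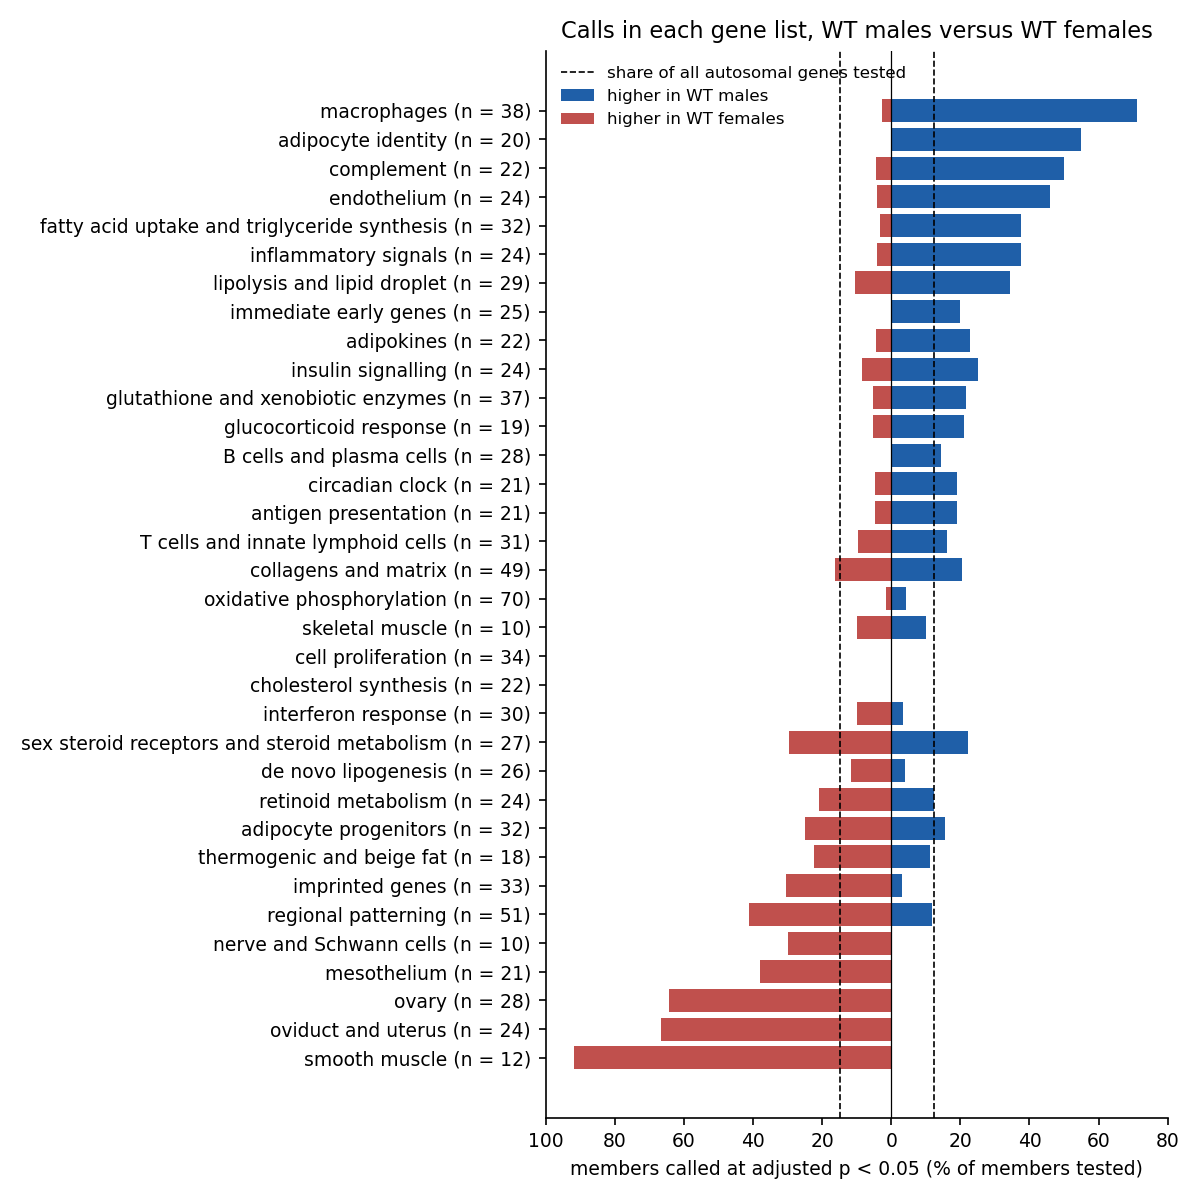
Share of each gene list (percent of members tested) called higher in WT males (blue, right) and in WT females (red, left) at a limma adjusted p under 0.05, for lists with at least 10 members tested. Dashed lines mark 12.3% and 14.7%, the shares over all autosomal genes tested; macrophage genes lead the male side and smooth muscle genes the female side.

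Calls in the other lists stand beside 12.3% higher in males and 14.7% higher in females over all genes tested. Of 21 circadian clock genes, 4 were higher in males (19.05%) and 1 in females (4.76%). *Per3*, a clock repressor, read 498, 475, 435, 484 and 540 in the females and 1556, 2229 and 1907 in the males (log2 fold change 1.95, SE 0.12, limma adjusted p = 5.45e-05). The clock-controlled factor *Tef* had a log2 fold change of 1.43 (limma adjusted p = 1.82e-04), and *Npas2*, an activator of the clock, was 2.81-fold higher in females. The hour at which each mouse was killed is not given in the sources used here. Xenobiotic and glutathione enzymes had 8 members higher in males and 2 in females of 37, with the oxidase *Aox1* at 1671 to 2026 in the females and 5400, 5125 and 5442 in the males (log2 fold change 1.52, SE 0.09, limma adjusted p = 4.42e-05). Glucocorticoid-response genes had 4 higher in males and 1 in females of 19, and 2 were called without WT female 5, WT male 1 or WT male 3. No member of 34 proliferation genes was called by limma, 3 had an unadjusted p under 0.05, and 25 carried the ovary mark. Yet 32 of the 34 had a negative log2 fold change, with a median of -0.64 against 0.003 over all genes tested. In U9-KO mice 11 were called higher in females and 0 in males, with a median of -0.94. In WT mice the number called was 5 without WT female 1, 2 without WT female 4 and 1 without WT female 2.

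The remaining lists split as follows, beside 12.3% of all genes tested called higher in males and 14.7% in females. Of 22 adipokine genes 5 were higher in males and 1 in females, and of 24 insulin signalling genes 6 and 2 were, with 5 called in all without WT male 1 and 3 without WT male 3. Of 32 progenitor genes 5 were higher in males, among them the pericyte receptor *Pdgfrb*, and 8 in females, among them *Pi16*, a marker of early progenitors. Retinoid genes gave 3 (12.5%) and 5 (20.8%) of 24, with 5 called in all without WT male 3. Immediate early genes gave 5 and 0 of 25 in WT mice, but 3 and 4 in U9-KO mice. The median of the immediate early genes was 0.227 in WT mice and -0.235 in U9-KO mice. Of 10 nerve and Schwann cell genes 3 were higher in females and 0 in males, and 1 was called without WT female 3, WT female 5, WT male 2 or WT male 3. Skeletal muscle gave 1 in each direction of 10, with 1 called without WT male 1 or WT male 2. Lymph node stroma gave 1 of 6 higher in females, with 2 called without WT male 2 and 0 without WT male 3. The pancreas list had a single member tested, *Cela1*, whose log2 fold change was 1.49 (limma adjusted p = 0.0387), and this call was lost without WT female 3, 4 or 5 or any of the 3 males, with the ovary covariate (limma adjusted p = 0.132) and in U9-KO mice (limma adjusted p = 0.0726).

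The 12 genes of the named rule with the widest female excess were mostly genes that moved with the smooth muscle or oviduct genes. *Mybpc1*, *Slitrk3*, *Bves*, *Myo18b*, *Syndig1*, *Cuzd1*, *Actg2* and *Cnn1* had r of 0.77 to 0.99 with smooth muscle. *Cdh16*, an epithelial cadherin, read 252, 427, 602, 302 and 1243 in the females and 0 in every male, at least 188-fold higher against a floor of 3 counts per library, with r of 0.76 for the oviduct genes. *Dcdc2a*, *Kif12* and *Pgr* carried none of the marks. *Dcdc2a* read 104 to 814 in the females and 0, 0 and 3.2 in the males, and *Kif12* read 24.2 to 612 in the females and 0 in every male, with WT female 5 the highest for both.

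Female-higher genes outside those marks numbered 1013, with a median log2 fold change of -1.04 and 230 of them beyond 2. The 12 protein-coding genes among them with the smallest p, a mean of at least 100, a log2 fold change beyond 1 and no overlap between the sexes were taken as examples after the values were seen. *Sorcs2*, a sorting receptor for neurotrophins, had the smallest adjusted p of them, at 832, 628, 749, 636 and 752 in the females and 51.6, 54.1 and 48.4 in the males (log2 fold change -3.77, SE 0.13, limma adjusted p = 1.45e-06). *Cybrd1*, a ferric reductase, read 1048, 1079, 930, 619 and 941 in the females and 95.9, 109 and 76.8 in the males (log2 fold change -3.27, SE 0.20, limma adjusted p = 4.42e-05). *Plod2*, which hydroxylates collagen lysines for cross-linking, read 3519, 2856, 2462, 5443 and 2163 in the females and 430, 482 and 397 in the males (log2 fold change -2.84, SE 0.26). In each of these genes the lowest female stood several-fold above the highest male.

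*Cish*, a feedback inhibitor of cytokine and growth hormone signalling through STAT5, read 905, 675, 744, 1174 and 493 in the females and 87.5, 75.3 and 67.3 in the males (log2 fold change -3.31, SE 0.25, limma adjusted p = 9.22e-05). *Myoc*, which encodes the secreted protein myocilin, read 2259, 1885, 968, 567 and 791 in the females and 24.2, 13.8 and 17.9 in the males (log2 fold change -5.88, SE 0.44). *Lgr6*, a receptor for R-spondins, read 1378, 510, 358, 452 and 299 in the females and 8.4, 5.3 and 2.1 in the males (log2 fold change -6.48, SE 0.51). *Igfbp3*, a carrier of insulin-like growth factors that was chosen after its values were seen, read 4570, 6423, 5509, 3033 and 3679 in the females and 426, 968 and 670 in the males (log2 fold change -2.78, SE 0.30, limma adjusted p = 4.08e-04). No overlap was a condition of choice for *Cish*, *Myoc* and *Lgr6*, and the sexes were also separate for *Igfbp3*. The promoter of *Cish* held the STAT motif at the start and again 12 bases after it.
Cish, chr9:107296409-107296708, plus strand: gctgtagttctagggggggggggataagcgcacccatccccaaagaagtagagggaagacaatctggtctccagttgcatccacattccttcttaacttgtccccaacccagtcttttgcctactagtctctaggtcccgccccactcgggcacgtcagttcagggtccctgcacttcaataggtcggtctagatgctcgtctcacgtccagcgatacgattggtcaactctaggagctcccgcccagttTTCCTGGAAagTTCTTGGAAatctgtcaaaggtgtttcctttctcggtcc

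Over the 11743 tested autosomal genes matched to such a promoter (chromosome 18 not used), the motifs marked in capitals were counted in the same window. The estrogen-receptor hexamer was in 12.5% of all promoters, in 12.5% of those of male-higher genes and in 13.2% of those of female-higher genes outside the tissue marks. The corresponding shares were 12.5%, 13.3% and 13.1% for the androgen- and glucocorticoid-receptor hexamer, 6.93%, 6.51% and 6.53% for the STAT motif, 8.57%, 9.1% and 8.13% for the C/EBP motif, and 7.57%, 8.97% and 8.56% for the TATA motif. A match describes letters in this window and not the binding of a factor.

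The U9-KO mice, which share no library with the WT comparison, were then examined. In them 5332 of 16802 autosomal genes were called (31.7%), 2393 higher in males (14.2%) and 2939 higher in females (17.5%). Of the WT male-higher genes, 2060 were tested there, and 1551 of them (75.3%) were called higher in males, 2029 had the same sign and 0 were called the other way. Of the WT female-higher genes, 2411 were tested, and 1924 (79.8%) were called higher in females, 2401 had the same sign and 0 were called the other way. For the 1013 female-higher genes outside the tissue marks, 985 were tested and 758 (77.0%) were called the same way. Of the U9-KO calls, 64.8% of the male-higher and 65.5% of the female-higher genes were called the same way in WT mice. The log2 fold changes were 7.92 in both genotypes for *Sult1e1*, 4.39 and 4.08 for *C7*, 3.36 and 2.79 for *Hp*, -3.77 and -4.18 for *Sorcs2*, and -3.31 and -2.53 for *Cish*. Female libraries of both genotypes held ovary transcripts, so this check does not separate fat from the neighbouring tissues.

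Whether the effect of sex differed between the genotypes was tested over the 17 libraries. By limma 0 of 16865 autosomal genes were called (smallest adjusted p = 1), and 480 genes (2.85%) had an unadjusted p under 0.05, so no difference was detected, which does not show that the effects are alike.

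**Figure D5:**
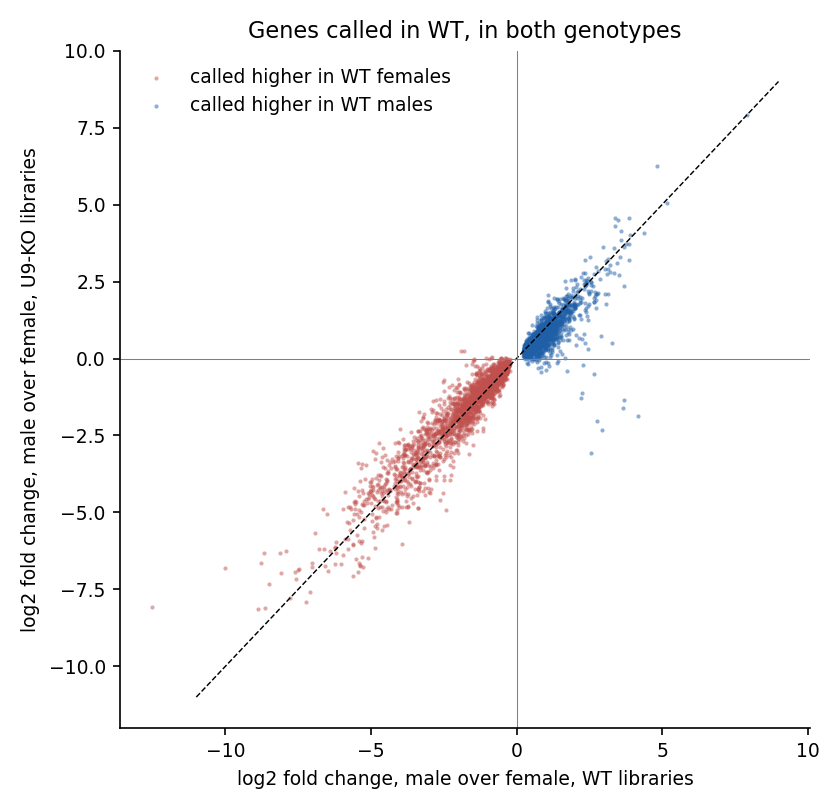
Log2 fold change of males over females in WT libraries (horizontal) and in U9-KO libraries (vertical) for genes called in WT mice, blue for male-higher and red for female-higher, with a dashed line of equality. Of the plotted genes, 2029 of 2060 male-higher and 2401 of 2411 female-higher genes have the same sign in both genotypes.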

How the data were processed

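RNA of whole pWAT was enriched with oligo(dT), made into directional libraries and sequenced as paired ends, 1 library per mouse. The authors trimmed reads with trim_galore, aligned them with STAR 2.7.3a to GRCm38, assigned them to genes with summarizeOverlaps (mode Union), and normalized the counts with DESeq2 1.28.1. The deposited score is the normalized count rounded to whole numbers, with size factors that were apparently estimated separately in males and females. Raw counts were not used here, so no count model was fitted. The strand setting of the counting is not given in the sources used here, so antisense genes were not named.

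Gene names came from GENCODE M21 (55141 of 55401 identifiers). The 8 WT libraries were rescaled together by median of ratios, with factors of 1.024 to 1.041 in females and 0.942 to 0.951 in males. All genes with a mean of at least 10 on any chromosome (17526) were fitted with limma 3.58.1 in R 4.3.3 on log2(value + 1) with a mean-variance trend, adjusted over all of them by the Benjamini-Hochberg method, and read out for autosomes. On simulated data from these means for 17526 genes, the WT fit recovered 42.8%, 69.7% and 96.5% of genes changed 1.5-, 2- and 4-fold. It called 0.0385% of unchanged genes. In the simulation few genes were changed, genes varied independently, and each took the median spread of genes of like level. The real comparison called 27.0% of genes, and its females shared variation in neighbouring tissue, so these rates do not carry over to it. Tables and figures used Python 3.11.15, pandas 2.3.3, numpy 2.4.6 and matplotlib 3.10.9. P-values measure the spread between mice, and the labels give no batch or date.

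Members and the 39 gene lists were chosen with earlier results of these data known. Named genes were the 12 widest protein-coding differences in each direction (mean of at least 100, no overlap, no ovary mark and not in an ovary, oviduct or epididymis list or an antigen receptor segment), the 2 called members of each list with the smallest p in each direction, Lep, Adipoq, Pparg, Cebpa, Fabp4, Ucp1, Esr1, Pgr, Sult1e1 and the 4 ovary markers with the highest counts. Further members of the lists, the examples outside the tissue marks and the smooth muscle and oviduct marks were chosen after the values were seen. Alternatives were other scalings, filters, pseudocounts and variance models, a replicate block, all 17 libraries, ovary content as a covariate, and leaving out each library. TMM factors were computed by a script written for this work. Some genes of the lists are not reported here by name.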

Additional observations from a re-analysis of the deposited data

Results flagged for a closer look

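In 17 of the 159 named genes 1 WT female stood apart from the other 4, beyond the limit of Dixon's test at the 95% level. Chance alone gives about 1 in 20, or 7.95 of 159 genes. WT female 4, the library richest in ovary transcripts, was high for *Cyp11a1* (52502 against 577 to 13953 in the other females), *Inha* (6957 against 220 to 1045), *Foxl2* (1829 against 429 to 627), *Lrat* (671 against 46.4 to 193) and *Elovl5* (6626 against 3621 to 4327). The same library was low for *Csf1r* (1149 against 2605 to 2856), *Ebf1* (1417 against 2414 to 2794) and *H2-K1* (12425 against 16493 to 18020).

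WT female 1, the library with the fewest ovary transcripts, was high for *Pgr* (876 against 157 to 283), *Lgr6* (1378 against 299 to 510), *Ifi44* (307 against 153 to 196) and *Trim67* (146 against 45.2 to 64.4). WT female 5 was high for *Kif12* (612 against 24.2 to 123), *Dcdc2a* (814 against 104 to 306) and *Cldn4* (70.3 against 22.2 to 32.2). WT female 2 was low for the hemoglobin genes *Hbb-bs* (3935 against 5944 to 6322) and *Hbb-bt* (1041 against 1661 to 1876).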

How the results depend on the processing

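The 4559, 2073 and 2486 calls (both directions, male-higher, female-higher) stayed within 1.5 times of these counts under TMM scaling, quantile normalization, both filters, a pseudocount of 0.5, both variance models, an autosomal fit and all 17 libraries, whereas the deposited scaling gave 1260 male-higher genes. The ovary covariate gave 2880 and 1118 (both directions, male-higher). Without WT females 4 and 5 the counts were 2631, 1097 and 1534. Leaving out each library in turn gave 2506 to 4823, 975 to 2159 and 1531 to 2664, with the fewest without WT male 3 (2506, 975 and 1531) and 1206 male-higher genes without WT male 2. Calls within the lists, 308 in all, ranged from 191 without WT male 3 to 350 without WT female 1. A fit left with 2 males has less power, by construction.

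Deviations of males and females with the same label number correlated at 0.128, -0.0898 and -0.00245. WT male 1 correlated best with the female of its own number, and the other males did not. These values show no clear pairing by number and cannot exclude one. The third WT male is numbered 4 in the authors' column names, and a pairing by those names was not tested. With the replicate block the counts were 1986, 699 and 1287, and 3032 in place of 5332 in U9-KO mice. For the difference between genotypes, fitting without a filter gave 1 gene in place of 0. An ovary r of 0.8 or more marked 299 female-higher genes in place of 475. *Adipoq* changed sign under quantile normalization (-0.22) and the ovary covariate (-0.17). *Hcar1* did so in U9-KO mice (0.032). *Fasn* did so under quantile normalization (-0.0368), the block (-0.21), the ovary covariate (-0.42), without WT females 4 and 5 (-0.21), and in the leave-one-out fits without WT female 3 (-0.39), WT female 4 (-0.12) and WT male 1 (-0.46), where it ranged up to 0.88 without WT male 2. The cause was not tested. Depth was estimated from low values, and differences in genes near 0 depend on the pseudocount.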
